A study of Homo sapiens with 10 samples.

Results

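The 10 genes described here carry out or drive export from the nucleus: the export receptor XPO1, the other exportins CSE1L, XPOT, XPO5, XPO6 and XPO7, the small GTPase RAN, and the RAN partners RCC1, RANBP1 and RANBP3. They were taken by name from an expression table of 20030 genes, by a rule that uses no measured value, and all 10 had an entry. The RNA-seq libraries came from liver cancer lines of human origin called Huh7, PLC and 97H, with 1 library for each line and treatment and 10 libraries in all. Cells had received a CDK4/6 inhibitor (3 libraries, 1 from each line), an XPO1 inhibitor (2 libraries, PLC and 97H), the combination of both inhibitors (2 libraries, PLC and 97H) or vehicle, called control (3 libraries, 1 from each line). The XPO1 inhibitor is named KPT330, also known as selinexor, in the sample titles, and the CDK4/6 inhibitor is not named. The sources used here give neither doses nor treatment times. The replicate of a treatment is therefore a cell line, and the labels do not say whether a line was grown in separate cultures. Each p-value of a treatment comparison thus rests on a residual spread pooled over the treatments. That spread holds differences of effect between established lines in culture and variation between libraries, which cannot be told apart.

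RAN is a GTPase that is loaded with GTP in the nucleus by RCC1, its chromatin-bound exchange factor, and gives up its phosphate in the cytoplasm, where RANBP1 helps the GTPase-activating protein RANGAP1 to act. Exportins bind cargo together with RAN-GTP in the nucleus and release it in the cytoplasm, so the gradient of RAN-GTP gives export its direction. XPO1 carries proteins with a leucine-rich export signal and several kinds of RNA, and selinexor binds covalently to a cysteine in its cargo groove. CSE1L returns importin alpha to the cytoplasm, XPOT exports transfer RNA, XPO5 exports precursor microRNAs, XPO6 exports actin bound to profilin, XPO7 handles a broad set of proteins, and RANBP3 is a nuclear cofactor of XPO1.

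Promoters of 8 of the 10 genes were found in RefSeq (GRCh38.p14) and were searched on both strands for CCAAT (reverse ATTGG), the E-box CACGTG, the cell-cycle homology region TTTGAA (reverse TTCAAA) and the E2F forms TTTGGCGC, TTTCGCGC, TTTCCCGC and TTTGCCGC with their reverse forms. Windows of 280 bases, from 250 before to 30 after the start, are given for the 4 genes on which the results below turn, with every match in capitals.
XPO1, chr2:61538327-61538606, minus strand: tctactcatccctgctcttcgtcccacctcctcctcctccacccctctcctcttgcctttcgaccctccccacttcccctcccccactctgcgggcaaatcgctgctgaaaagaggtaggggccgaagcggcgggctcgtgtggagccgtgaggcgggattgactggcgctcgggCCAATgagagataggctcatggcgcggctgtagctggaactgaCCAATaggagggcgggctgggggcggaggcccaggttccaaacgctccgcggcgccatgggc
CSE1L, chr20:49046062-49046341, plus strand: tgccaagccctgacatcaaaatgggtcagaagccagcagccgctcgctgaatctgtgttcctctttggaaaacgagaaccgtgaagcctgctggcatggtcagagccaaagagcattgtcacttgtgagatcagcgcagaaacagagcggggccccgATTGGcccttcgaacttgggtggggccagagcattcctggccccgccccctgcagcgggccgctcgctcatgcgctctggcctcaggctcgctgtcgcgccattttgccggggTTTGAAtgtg
RAN, chr12:130871816-130872095, plus strand: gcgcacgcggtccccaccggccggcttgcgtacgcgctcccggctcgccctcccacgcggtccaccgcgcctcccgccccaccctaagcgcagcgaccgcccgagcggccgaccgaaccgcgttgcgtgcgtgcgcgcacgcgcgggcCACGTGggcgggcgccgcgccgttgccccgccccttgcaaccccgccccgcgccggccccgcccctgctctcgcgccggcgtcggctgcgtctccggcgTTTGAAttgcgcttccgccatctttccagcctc
RCC1, chr1:28517976-28518255, plus strand: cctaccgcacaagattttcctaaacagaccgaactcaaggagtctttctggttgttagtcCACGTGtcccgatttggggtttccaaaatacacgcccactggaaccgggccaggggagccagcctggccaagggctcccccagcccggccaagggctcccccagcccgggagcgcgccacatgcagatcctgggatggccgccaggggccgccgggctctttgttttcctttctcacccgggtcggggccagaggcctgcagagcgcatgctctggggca
The XPO1 window shown, for the upstream of 2 starts, holds CCAAT at 75 and again at 32 bases before the start, and the window of the other start has CACGTG 44 bases before it. CSE1L has ATTGG at 93 bases before the start and TTTGAA 21 bases after it, RAN has CACGTG at 102 and TTTGAA at 3 bases before the start, and the RCC1 window shown, for the downstream of 2 starts, has CACGTG at 190 bases before it, while the window of the upstream start has no match. Of the genes searched but not shown, XPO6 has ATTGG at 61 bases before its start. RANBP3 has the reverse E2F form GCGGGAAA at 187 bases before its start, and the XPO5 and XPOT windows have no match. Among 35116 promoter windows of the same length, 33.6% hold CCAAT or its reverse, 14.5% TTTGAA or its reverse, 6.94% CACGTG and 3.14% an E2F form. These matches describe the letters of the windows and are not binding sites measured in these cells.

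All values are FPKM, by definition fragments counted per kilobase of transcript length and relative to the library total. How the authors computed them is not stated, so levels of different genes are compared on that definition alone. Differences are log2 differences of FPKM + 1 from limma with cell line as a block, tested in 10477 genes (mean FPKM of 1 or more), among which are all 10 described here. An adjusted p under 0.05 (Benjamini-Hochberg over the tested genes) was taken as the threshold. The absolute depth of the libraries is unknown, and between 14033 and 15264 genes were above 0 per library. Libraries differed in how the log2 differences followed the GC content of transcripts. Within PLC, the Spearman correlation across genes between GC content and the difference from control was -0.677 for the CDK4/6 inhibitor, -0.719 for the XPO1 inhibitor and -0.294 for the combination. Within 97H the same values were 0.723, 0.465 and 0.255, and in Huh7 the CDK4/6 inhibitor gave 0.177. XPO1, CSE1L and XPOT have transcripts of 39.57%, 39.18% and 40.85% GC, RAN has 43.07%, and the median tested gene has 50.13%, and values with the trends on GC content and length removed are given beside several results.

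Checked against a list of 9 hepatocyte markers, every library had at least 8 of them at 1 FPKM or more. The summed level of the list was 3697 to 11910 FPKM under the CDK4/6 inhibitor, 3373 to 4061 FPKM under the XPO1 inhibitor, 4531 to 6826 FPKM under the combination and 2936 to 9126 FPKM in controls. The keratin genes KRT8 and KRT18 made up most of the sum in 97H, with 2113 and 785 FPKM in the 97H control, where ALB had 2.42 FPKM and APOA1 0.558. Under the combination the members went different ways, with KRT18 at a log2 difference of 1.18 (limma, adjusted p = 0.220) and AFP at -1.41 (limma, adjusted p = 0.502). A list of 10 markers of fibroblasts, leukocytes and endothelium summed to 64.5 to 142 FPKM under the CDK4/6 inhibitor, 24.6 to 60.9 FPKM under the XPO1 inhibitor, 115 to 127 FPKM under the combination and 22.8 to 55.4 FPKM in controls. No more than 4 of these 10 markers reached 1 FPKM in any library, and the T-cell marker CD3E was listed at 0 in both combination libraries. Under the combination 3 of the 5 tested markers, CD68, COL1A1 and LUM, were higher than control at an unadjusted p under 0.05, as were 6.35% of tested genes, and none passed adjustment (limma, adjusted p = 0.166, 0.276 and 0.360). CD68, a macrophage and lysosomal marker, made up most of the sum in PLC and 97H under the combination and in control, at 127 FPKM in PLC and 81.1 in 97H under the combination, against 22.7 and 48.5 FPKM in the controls of PLC and 97H. The list moved with the treatments described below, and its part in those results was not tested.

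RAN had the highest level of the 10 genes. Its lowest library, at 104 FPKM, stood above the highest library of any of the other 9 genes, which was CSE1L at 71.4 FPKM. Over the 10 libraries the median level was 282 FPKM for RAN, 31.4 for RCC1, 26.6 for XPO6, 26.2 for CSE1L, 19.4 for XPO5, 19.0 for XPO7, 18.7 for XPO1, 18.4 for RANBP3, 15.3 for XPOT and 10.8 for RANBP1. Below RAN the ranges of neighbouring genes in this order overlapped, so their order is within their spread. XPO1 had the widest range, with its highest library 8.46 times its lowest, and RANBP3 the narrowest at 1.93 times.

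**Figure D1:**
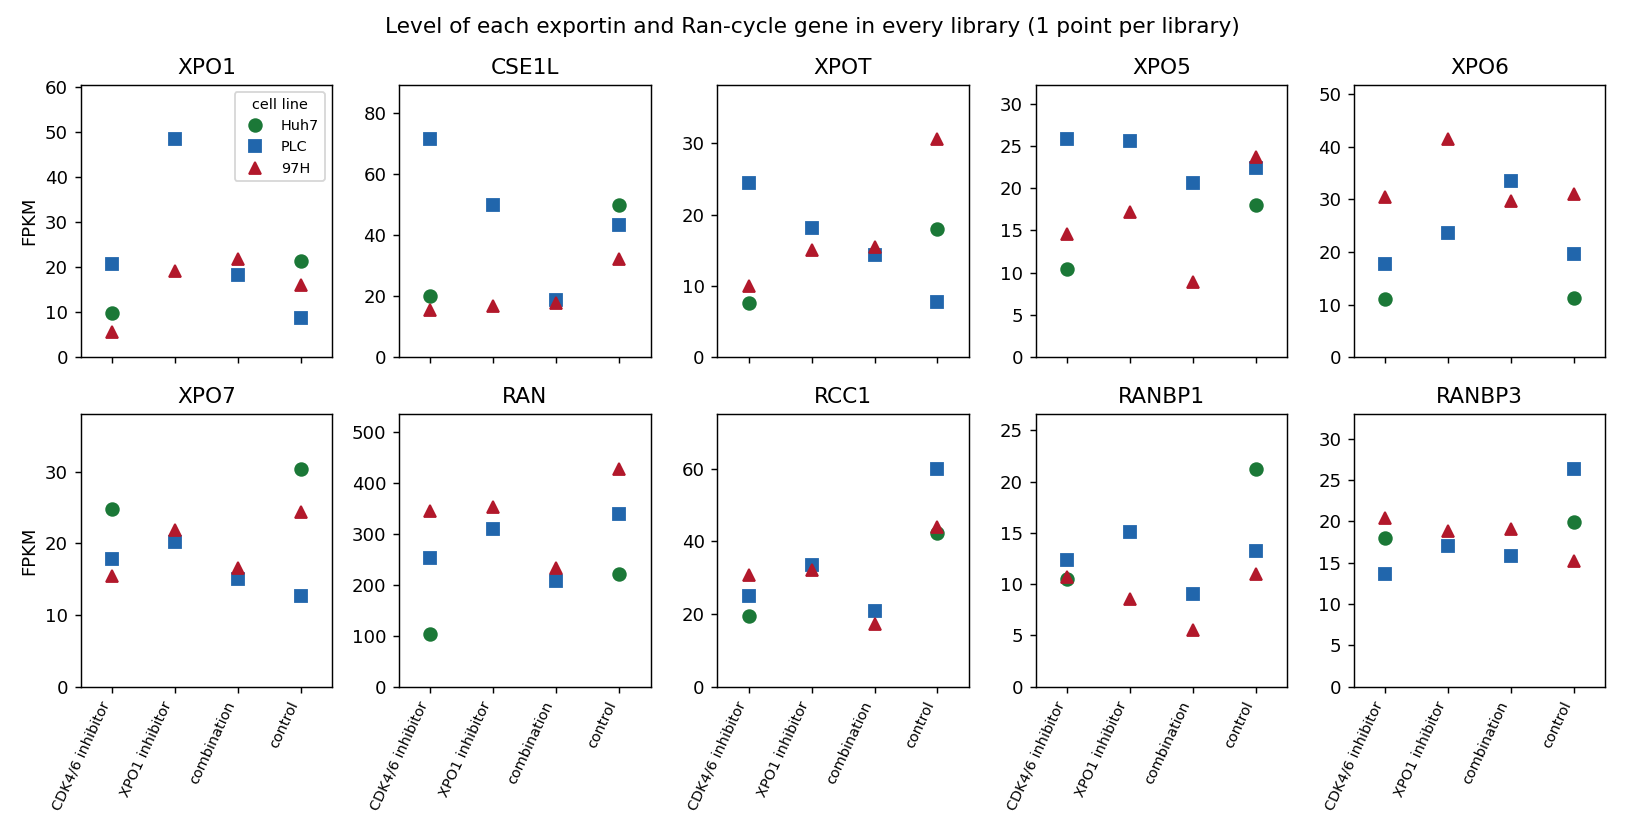
FPKM of the 10 genes in each library, by treatment (from left, CDK4/6 inhibitor, XPO1 inhibitor, combination, control) and cell line (green circles Huh7, blue squares PLC, red triangles 97H); each point is 1 library and each panel has its own scale from 0. XPO1 reaches 48.3 FPKM in the PLC library with the XPO1 inhibitor, and every treated RCC1 point lies below the 3 controls.

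XPO1, the target of selinexor, lies on chromosome 2 (61477849 to 61538626, minus strand, GENCODE 29 on GRCh38). It was higher under the XPO1 inhibitor than in the control of the same line in both lines, but by very different amounts, and the difference did not pass the test. XPO1 had 48.3 FPKM in PLC and 19.2 in 97H under the XPO1 inhibitor, 18.1 and 21.7 under the combination, and 8.65 and 15.9 in the controls of PLC and 97H. In these bulk libraries a change in RNA per cell and a change in the share of cells with the RNA cannot be told apart. The level under the XPO1 inhibitor was 5.58 times the control in PLC and 1.20 times in 97H. The fitted log2 difference was 1.30 (SE 0.58; limma, adjusted p = 0.968). After removal of GC and length trends it was 0.99 (limma, adjusted p = 0.690), and the log2 differences within PLC and 97H were 1.46 and 0.52. Under the combination XPO1 was 2.10 times the control in PLC and 1.36 times in 97H, a log2 difference of 0.71 (SE 0.58; limma, adjusted p = 0.713). Without the PLC control library, which had the lowest XPO1 of the 3 controls, the combination value was -0.15 (limma, adjusted p = 0.923).

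Under the CDK4/6 inhibitor alone XPO1 had no common direction. It stood at 9.84 FPKM in Huh7, 20.6 in PLC and 5.71 in 97H under the inhibitor, against 21.4, 8.65 and 15.9 FPKM in the controls of Huh7, PLC and 97H. The treated level was thus 0.460 times the control in Huh7 and 0.358 times in 97H, but 2.38 times in PLC. The log2 difference over the 3 lines was -0.41 (SE 0.46; limma, adjusted p = 0.875). Once the trends were removed the values were -0.88 in Huh7, 0.19 in PLC and -0.76 in 97H, so the difference in PLC was close to 0 on that scale.

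Adding the XPO1 inhibitor to the CDK4/6 inhibitor gave unequal XPO1 values in the 2 lines. In 97H the combination had 3.81 times the XPO1 of the CDK4/6 inhibitor alone, and in PLC 0.880 times (log2 difference 0.79, SE 0.58; limma, adjusted p = 1). Against the XPO1 inhibitor alone the combination had 0.376 times the level in PLC and 1.13 times in 97H (-0.60, SE 0.58; limma, adjusted p = 1). The 2 combination libraries lay close together, at 19.9 ± 2.54 FPKM (SD, n = 2), against 33.7 ± 20.6 FPKM (SD, n = 2) under the XPO1 inhibitor alone.

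Among the other exportins, CSE1L, XPOT, XPO5 and XPO7 differed from control in opposite directions in different lines under the CDK4/6 inhibitor. After removal of GC and length trends, XPOT was the one of these that still did: the log2 difference in PLC was -0.22 for CSE1L, -0.22 for XPO5 and -0.10 for XPO7, on the side of the other 2 lines, and 0.54 for XPOT. CSE1L, the export receptor of importin alpha on chromosome 20 (49046246 to 49096960, plus strand), had 18.8 FPKM in PLC and 17.7 in 97H under the combination, against 50.0, 43.4 and 32.2 FPKM in the controls of Huh7, PLC and 97H. Both combination libraries were below all 3 controls. The log2 difference from the controls of PLC and 97H was -0.999 (SE 0.48; limma, adjusted p = 0.448). After the trends were removed it was -1.09 and passed the test (limma, adjusted p = 0.0457). As deposited, leaving out 1 library gave -1.64 (without the 97H combination library) to -0.36 (without the PLC one). Under the CDK4/6 inhibitor CSE1L stood at 20.1, 71.4 and 15.5 FPKM in Huh7, PLC and 97H, below the control in Huh7 and 97H and above it in PLC. The XPO1 inhibitor gave 49.9 FPKM in PLC and 16.9 in 97H, again on opposite sides of the controls of those lines.

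XPOT, the exporter of transfer RNA, had the least common pattern of the 10. It stood at 7.64, 24.4 and 9.95 FPKM under the CDK4/6 inhibitor in Huh7, PLC and 97H, at 18.2 and 15.1 under the XPO1 inhibitor and 14.4 and 15.5 under the combination in PLC and 97H, and at 18.0, 7.77 and 30.5 FPKM in the controls of Huh7, PLC and 97H. The PLC control was the lowest and the 97H control the highest of the 8 libraries of these 2 lines, so every treatment was above control in PLC and below it in 97H. The fitted log2 differences were -0.38 for the CDK4/6 inhibitor, 0.08 for the XPO1 inhibitor and -0.06 for the combination (SE 0.49 to 0.61; limma, adjusted p = 0.891, 0.990 and 0.987). Each of the 3 values turned sign when 1 library was left out. Without the 97H control the combination value was 1.09 and the CDK4/6 inhibitor value 0.11, and without the PLC control the XPO1 inhibitor value was -1.07. Removing GC and length trends brought PLC from a log2 difference of 1.53 to 0.54 under the CDK4/6 inhibitor, from 1.13 to 0.22 under the XPO1 inhibitor and from 0.81 to 0.30 under the combination. In 97H the values with trends removed were -0.98, -0.73 and -0.79, still on the other side of control.

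XPO5, the exporter of precursor microRNAs, had 20.7 FPKM in PLC and 8.96 in 97H under the combination, against 18.1, 22.4 and 23.7 FPKM in the controls of Huh7, PLC and 97H. It was lower than its own control in both lines, slightly in PLC and by 2.65-fold in 97H, with a log2 difference of -0.71 (SE 0.37; limma, adjusted p = 0.480). With GC and length trends removed this was -0.86 (limma, adjusted p = 0.0580). As deposited, it was -0.26 without the 97H control, -0.36 without the 97H combination library and -1.16 without the PLC control. Under the CDK4/6 inhibitor XPO5 stood at 10.4, 25.8 and 14.6 FPKM in Huh7, PLC and 97H, and under the XPO1 inhibitor at 25.6 in PLC and 17.2 in 97H. The gene overlaps POLR1C on the other strand of chromosome 6, so reads of the 2 genes may be mixed.

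XPO6, the exporter of actin, was the exportin with the smallest response to the CDK4/6 inhibitor, at 11.0, 17.8 and 30.5 FPKM under it in Huh7, PLC and 97H, against 11.3, 19.6 and 31.0 FPKM in the controls (log2 difference -0.06, SE 0.25; limma, adjusted p = 0.971). The XPO1 inhibitor libraries had 23.6 FPKM in PLC and 41.4 in 97H, and the combination 33.5 and 29.7. XPO6 was thus above its control in both lines under the XPO1 inhibitor (0.33, SE 0.34; limma, adjusted p = 0.968), while under the combination it was 1.71 times control in PLC and 0.959 times in 97H. XPO7 ranged from 15.5 to 24.9 FPKM under the CDK4/6 inhibitor, 20.1 to 21.9 under the XPO1 inhibitor, 15.1 to 16.6 under the combination and 12.7 to 30.4 FPKM in controls. Each treatment overlapped with control, and both combination libraries were below both libraries of the XPO1 inhibitor.

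In the Ran cycle, RCC1 and RAN were lower in every treated library than in the control of the same line. RCC1, the exchange factor that charges RAN with GTP, had 21.0 FPKM in PLC and 17.2 in 97H under the combination, 33.4 and 32.1 under the XPO1 inhibitor, 19.6, 24.9 and 30.8 under the CDK4/6 inhibitor in Huh7, PLC and 97H, and 42.3, 60.0 and 44.0 FPKM in the controls of Huh7, PLC and 97H. No treated library reached the lowest control. The group means were 19.1 ± 2.64 FPKM for the combination (SD, n = 2), 32.7 ± 0.970 for the XPO1 inhibitor (n = 2), 25.1 ± 5.63 for the CDK4/6 inhibitor (n = 3) and 48.7 ± 9.76 for control (n = 3). The combination was 2.86-fold below control in PLC and 2.55-fold in 97H.

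RCC1 had the most negative log2 difference of the 10 genes in each comparison with control. Against control the combination gave -1.39 (SE 0.31; limma, adjusted p = 0.0965), which missed the threshold. The value was -1.42 with GC and length trends removed (limma, adjusted p = 0.0185) and -1.42 when Huh7 was added to the fit (limma, adjusted p = 0.02705), and both passed. The CDK4/6 inhibitor gave -0.94 (SE 0.23; limma, adjusted p = 0.461) and the XPO1 inhibitor -0.63 (SE 0.31; limma, adjusted p = 0.968). The RCC1 gene on chromosome 1 (28505943 to 28539300, plus strand, GENCODE 29 on GRCh38) overlaps the non-coding gene SNHG3 and the small nucleolar RNA genes SNORA73A and SNORA73B on the same strand, so reads from these could be assigned to either.

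RAN itself had 208 FPKM in PLC and 233 in 97H under the combination, 310.0 and 352 under the XPO1 inhibitor, 104, 253 and 345 under the CDK4/6 inhibitor in Huh7, PLC and 97H, and 221, 339 and 428 FPKM in the controls of Huh7, PLC and 97H. Within PLC and 97H the order was the same, with control highest and the combination lowest. The groups overlapped, since the Huh7 control lay between the 2 combination libraries. The combination was 1.63-fold below control in PLC and 1.83-fold in 97H, a log2 difference of -0.79 (SE 0.24; limma, adjusted p = 0.216). The CDK4/6 inhibitor gave -0.60 (SE 0.20; limma, adjusted p = 0.493) and the XPO1 inhibitor -0.20 (SE 0.24; limma, adjusted p = 0.968). Once GC and length trends were removed, the CDK4/6 inhibitor library of 97H lay above control, at a log2 difference of 0.24, while Huh7 was at -0.90 and PLC at -1.23. GENCODE lists 9 pseudogenes of RAN, and the sources used here do not say how shared reads were counted.

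RANBP1, which binds RAN-GTP and aids its hydrolysis, had 9.01 FPKM in PLC and 5.53 in 97H under the combination, against 21.3, 13.2 and 11.0 FPKM in the controls of Huh7, PLC and 97H. Both combination libraries were below all controls, with a log2 difference of -0.69 (SE 0.36; limma, adjusted p = 0.484). Under the CDK4/6 inhibitor it stood at 10.5, 12.3 and 10.7 FPKM in Huh7, PLC and 97H, 2.03-fold below control in Huh7 and close to control in the other two lines. The XPO1 inhibitor gave 15.1 FPKM in PLC and 8.55 in 97H. RANBP1 lies on chromosome 22 (20115938 to 20127357, plus strand) and overlaps TRMT2A on the other strand; the sources used here do not say whether strand was used in counting. RANBP3, the XPO1 cofactor, had 13.7 to 20.4 FPKM under the CDK4/6 inhibitor, 17.1 to 18.8 under the XPO1 inhibitor, 15.8 to 19.1 under the combination and 15.3 to 26.4 FPKM in controls. Every treated PLC library was below the PLC control, and every treated 97H library above the 97H control. RANBP3 has transcripts of 59.14% GC, the highest of the 10 genes. With GC and length trends removed, its log2 difference in PLC under the CDK4/6 inhibitor went from -0.90 to -0.56. The fitted values were then -0.23 for the CDK4/6 inhibitor, -0.034 for the XPO1 inhibitor and -0.24 for the combination. As deposited they were -0.21, -0.16 and -0.20.

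**Figure D2:**
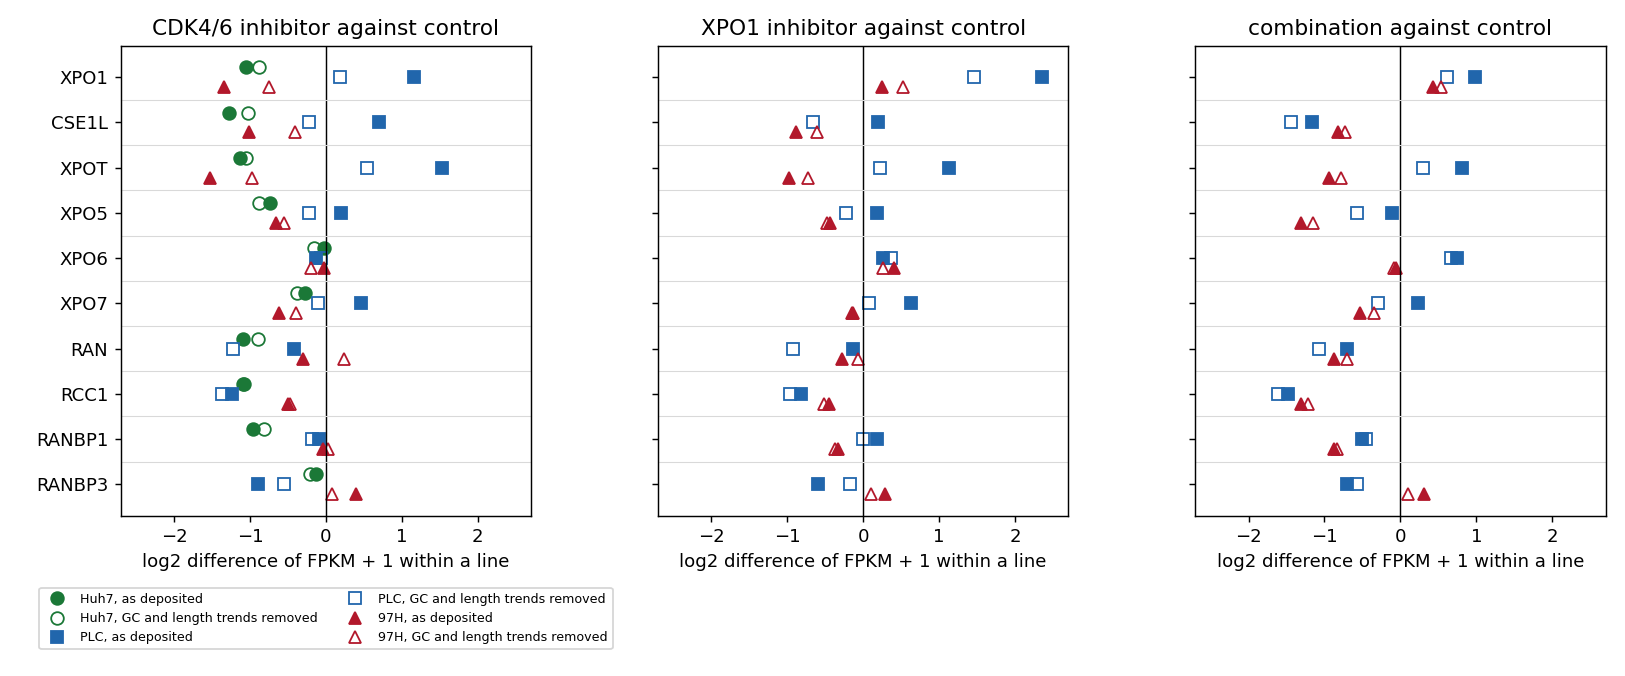
Log2 difference of FPKM + 1 between each treatment and the control of the same line for the 10 genes; filled symbols are the deposited values, open symbols the values with GC content and length trends removed (green circles Huh7, blue squares PLC, red triangles 97H). All filled RAN and RCC1 symbols lie left of 0; for XPO1 under the CDK4/6 inhibitor, PLC is at 1.16 as deposited and 0.19 with the trends removed.

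Set side by side, all 10 genes had a negative log2 difference under the CDK4/6 inhibitor, with a median of -0.39 against 0.03 over all tested genes. No share of tested genes with a negative difference is given here. For XPOT, XPO6, XPO7 and RANBP3 the sign turned when 1 library was left out. None of the 10 was called by limma (percentage called among all tested genes, 0.0%). At an unadjusted p under 0.05, 2 of them, RAN and RCC1, were lower, as were 4.23% of tested genes. Of the 10, 4 genes (XPO6, RAN, RCC1 and RANBP1) were lower than control by any margin in all 3 lines, as were 10.3% of tested genes. The margin was small for XPO6 in all 3 lines and for RANBP1 in PLC and 97H. Only RCC1 had all treated libraries below all controls, as had 1.63% of tested genes. Counts of genes at least 2-fold lower differed between lines, with 1 library per line and treatment and no test. In Huh7 6 of the 10 (XPO1, CSE1L, XPOT, RAN, RCC1 and RANBP1) were at least 2-fold lower, against 8.1% of tested genes. In PLC 1 of the 10 was (8.15% of tested genes) and in 97H 3 were (12.6% of tested genes). XPO1 and XPOT were instead at least 2-fold higher in PLC, as were 29.2% of tested genes.

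Under the XPO1 inhibitor the median of the 10 genes was -0.10, against 0.10 over all tested genes, and the limma test called none of the 10 and 0.0% of tested genes. None of the 10 had an unadjusted p under 0.05, against 0.668% of tested genes lower and 1.79% higher at that level. RAN and RCC1 were lower in both lines, as were 16.8% of tested genes, and RCC1 had both treated libraries below all controls, as had 2.75%. XPO1 and XPO6 were higher in both, as were 21.7%.

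Under the combination the median was -0.44, against 0.07 over all tested genes. In this comparison limma called 83 genes, 0.792% of those tested (32 higher and 51 lower), and none of the 10. Leaving out the control of PLC, or its combination library, gave 0 called genes. Leaving out the 97H combination library gave 2, the 97H control 166, and the CDK4/6 inhibitor library of PLC or of 97H 158 or 184. RAN and RCC1 were lower at an unadjusted p under 0.05, as were 6.07% of tested genes. CSE1L, XPO5, RAN, RCC1 and RANBP1 were lower in both lines, as were 24.2% of tested genes, and XPO1 was higher in both, as were 29.6%. CSE1L, RCC1 and RANBP1 had both combination libraries below all controls, as had 8.36% of tested genes. With GC and length trends removed 675 genes were called, 6.46% of the 10448 with a GC value, and CSE1L and RCC1 were among them. With Huh7 added to the fit 261 genes were called, 2.49%, and RCC1 was among them.

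Compared with the CDK4/6 inhibitor alone, the combination had lower XPO5, RAN, RCC1 and RANBP1 in both lines, as had 21.7% of tested genes. Compared with the XPO1 inhibitor alone, these 4 and XPO7 were lower in both lines, as were 28.3% of tested genes. Against the XPO1 inhibitor the log2 differences were -0.75 for RCC1 (SE 0.31; limma, adjusted p = 0.932), -0.58 for RAN (SE 0.24; limma, adjusted p = 0.961) and -0.62 for RANBP1 (SE 0.36; limma, adjusted p = 1). Against the CDK4/6 inhibitor they were -0.52 for RCC1, -0.42 for RAN and -0.63 for RANBP1 (limma, adjusted p = 1 for each). With trends removed, RAN under the combination in PLC lay above the CDK4/6 inhibitor library, at a log2 difference of 0.16. CSE1L was 3.81-fold lower than under the CDK4/6 inhibitor in PLC and 1.15 times its level in 97H. Limma called none of the 10 genes, and 0.0% of tested genes, in either comparison. At an unadjusted p under 0.05, RAN and RCC1 were lower than under the XPO1 inhibitor (2.81% of tested genes), and none of the 10 differed from the CDK4/6 inhibitor (1.99% of tested genes lower and 1.3% higher).

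The interaction compares the combination with the sum of the 2 single effects. It was -0.51 for XPO1 (SE 0.82), -0.55 for RANBP1 (SE 0.51), the most negative of the 10, and 0.21 for RANBP3 (SE 0.54), the most positive. None passed (limma, adjusted p = 1 for each; 0.0% of tested genes called), and the standard errors of the 10 genes were 0.34 to 0.86. After removal of GC and length trends the interaction was -0.13 for XPO1, -0.38 for RANBP1 and 0.033 for RANBP3, and RCC1 at 0.24 and XPOT at 0.23, which was at -0.15 as deposited, were then the most positive. The XPO1 value was 0.35 when the PLC control was left out, 0.30 when the CDK4/6 inhibitor library of PLC was, and 0.030 when the XPO1 inhibitor library of PLC was.

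Other genes of the pathway were described in lists for the combination against control, where 0.792% of tested genes were called and the median of tested genes was 0.07. Of 7 other Ran-cycle genes and exportins, 4 were tested and none passed, with a median of -0.11. Among them RANGAP1, the GTPase-activating protein of RAN, was at -0.46 (limma, adjusted p = 0.613), RANGRF at -0.33 and NUTF2, the importer of RAN-GDP, at 0.24. Of 11 XPO1 adaptors and docking nucleoporins none passed, with a median of -0.29. ANP32B was at -1.29 (SE 0.28; limma, adjusted p = 0.0936), with 47.8 FPKM in PLC and 50.9 in 97H under the combination, against 123 and 122 FPKM in the controls of PLC and 97H. ANP32A was at -0.67 and RIOK2 at -0.48.

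Bulk mRNA export uses the receptor NXF1 and the TREX complex instead of RAN and exportins, and its 15 genes were all tested. None passed, 3 were lower at an unadjusted p under 0.05, against 6.07% of tested genes, and the median was -0.33. The 3 were DDX39A at -1.69 (SE 0.32; limma, adjusted p = 0.0569), DDX39B at -1.17 (limma, adjusted p = 0.125) and ALYREF at -1.19 (limma, adjusted p = 0.154), 2 helicases and an adaptor of TREX. DDX39A had 19.6 FPKM in PLC and 13.0 in 97H under the combination, against 82.5 and 35.1 FPKM in the controls of PLC and 97H. NXF1 itself was at -0.20. Of 7 importin genes 6 were tested and none passed, with a median of 0.06. KPNA2, an importin alpha gene, had the lowest value at -1.60 (SE 0.44; limma, adjusted p = 0.176). The other tested importin alpha genes were at -0.05 to 0.27. KPNA2 had 51.0 FPKM in PLC and 16.3 in 97H under the combination, against 76.1 and 106 FPKM in the controls. KPNB1, the importin beta gene, was at -0.39 and KPNA6 at 0.27.

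MicroRNA processing genes, partners of XPO5, numbered 6 tested of 9, none passed, and the median was -0.09. AGO2 was at -0.77 (limma, adjusted p = 0.471), DGCR8 at -0.55 and TARBP2 at -0.19. The 6 proliferation genes behaved otherwise, with 4 called lower under the combination and a median of -2.11. CCNA2 fell by 3.02 (limma, adjusted p = 0.0345), PCNA by 2.24 (limma, adjusted p = 0.0345), CCNB1 by 2.22 (limma, adjusted p = 0.0321) and MCM2 by 1.76 (limma, adjusted p = 0.0390) on the log2 scale. MKI67 was at -1.96 (limma, adjusted p = 0.0876) and TOP2A at -1.99 (limma, adjusted p = 0.199). In the 2 comparisons of a single inhibitor with control, in those of the combination with each inhibitor and in the interaction, no gene of these 6 lists was called.

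Between lines, treatment taken as a block, 4 differences passed. The libraries of a line, which differ in treatment, served as its replicates here. These p-values thus rest on how far the line differences varied between treatments and on variation between libraries, not on replicate cultures of a line. RAN was lower in Huh7, at 162 ± 82.9 FPKM (SD, n = 2), than in PLC, at 278 ± 58.3 (n = 4), with a log2 difference of -1.003 (SE 0.23; limma, adjusted p = 0.00981), and lower than in 97H, at 339 ± 80.1 FPKM (n = 4), with -1.28 (SE 0.23; limma, adjusted p = 0.00208). XPO6 was lower in Huh7, at 11.1 ± 0.185 FPKM, than in 97H, at 33.2 ± 5.50 (-1.29, SE 0.29; limma, adjusted p = 0.00671). CSE1L was higher in PLC, at 45.9 ± 21.7 FPKM, than in 97H, at 20.6 ± 7.83 (1.03, SE 0.35; limma, adjusted p = 0.0320). Lines differed widely, since 28.3% of tested genes were called between Huh7 and PLC, 35.2% between Huh7 and 97H and 49.3% between PLC and 97H, against 1, 2 and 1 of the 10. Without the Huh7 CDK4/6 inhibitor library none of the 3 Huh7 differences passed (limma, adjusted p = 0.242, 0.0743 and 0.0747), and without the Huh7 control that of XPO6 did not (limma, adjusted p = 0.0833). The CSE1L difference did not pass without the PLC CDK4/6 inhibitor library (0.63; limma, adjusted p = 0.0966), the PLC XPO1 inhibitor library (0.88; limma, adjusted p = 0.121), the 97H control (1.10; limma, adjusted p = 0.05495), the 97H CDK4/6 inhibitor library (0.84; limma, adjusted p = 0.113) or the 97H XPO1 inhibitor library (0.88; limma, adjusted p = 0.118).

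The variation of each gene over the 8 PLC and 97H libraries was split into treatment, line and remainder, as shares of the sum of squares of log2(FPKM + 1). RCC1 and RAN varied mostly with treatment, at 91.8% and 78.2%, followed by RANBP1 at 54.7% and XPO1 at 49.4%; the median tested gene had 15.3%. The line took 45.9% for CSE1L, 45.9% for XPO6 and 41.9% for XPO5, against a median of 51.7%. For XPOT and RANBP3 the remainder took 98.0% and 86.4%, against a median of 20.8%. With 1 library per line and treatment, the remainder holds differences of response between the 2 lines and variation between libraries, which cannot be told apart. For XPO1 it took 41.7% and for RAN 3.18%. These shares are a description of 8 libraries without a test.

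**Figure D3:**
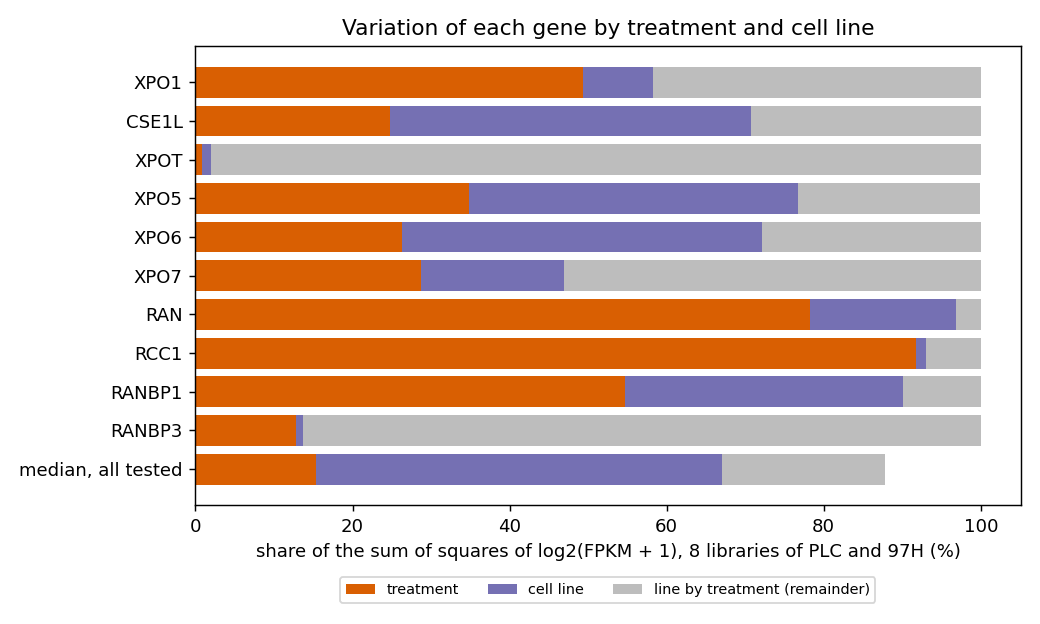
Share (%) of the sum of squares of log2(FPKM + 1), as deposited, over the 8 PLC and 97H libraries taken by treatment (orange), cell line (purple) and the remainder (grey) for each gene. The last bar gives the 3 medians over 10476 tested genes, which need not sum to 100. Treatment takes 91.8% for RCC1 and 78.2% for RAN, and the remainder 98.0% for XPOT.

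Likeness between genes was described by Pearson r of log2(FPKM + 1) over the 10 libraries after the mean of each line was removed; the libraries share lines and treatments, and no test was made. RAN followed RANBP1 (r = 0.945) and RCC1 (r = 0.927), and RCC1 followed RANBP1 (r = 0.811). XPO5 was close to RAN (r = 0.831), while XPO1 was not (r = 0.0848) and was nearer to XPO7 (r = 0.753) and XPOT (r = 0.680). With 6 proliferation genes r was 0.811 to 0.964 for RAN, 0.643 to 0.960 for RCC1 and 0.846 to 0.934 for RANBP1. It was 0.741 to 0.903 for XPO5, 0.648 to 0.941 for CSE1L, 0.293 to 0.665 for XPO7 and 0.139 to 0.647 for XPOT. For XPO1 it was -0.0529 to 0.301, for RANBP3 -0.176 to 0.411 and for XPO6 -0.467 to -0.291. The share of tested genes with such values was not computed. The r with the proliferation genes were not computed with GC and length trends removed. With those trends removed, r was 0.734 for RAN with XPO5 and 0.811 for RCC1 with RANBP1, and further pairs follow below.

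**Figure D4:**
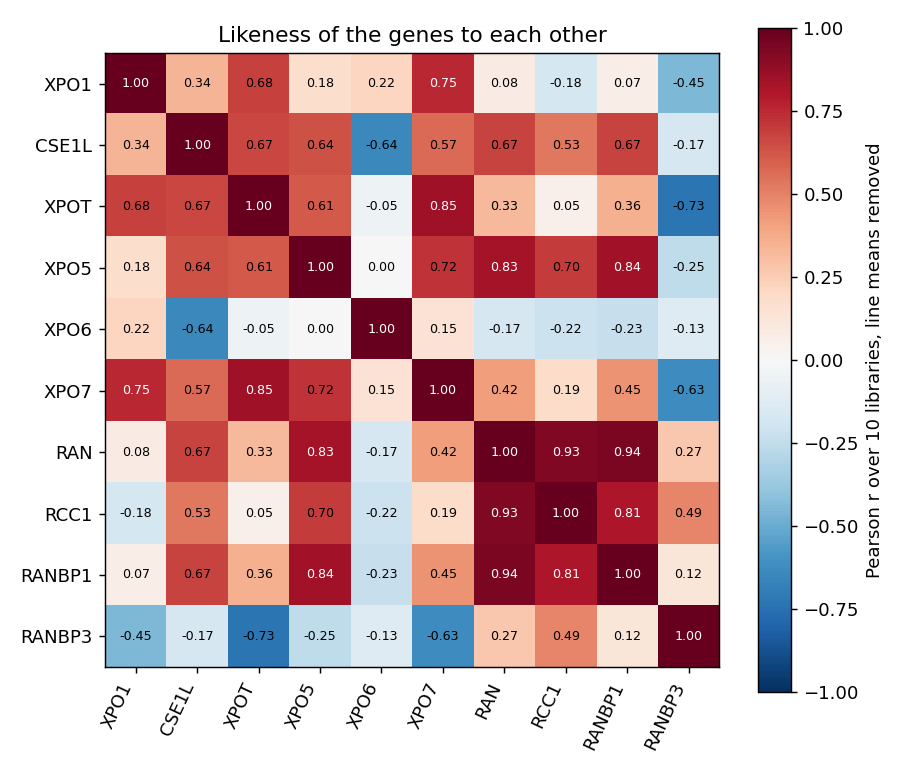
Pearson r between the 10 genes over 10 libraries, of log2(FPKM + 1) with line means removed; red is positive, blue negative, and each cell prints its r. RAN, RCC1 and RANBP1 form a block of 0.81 to 0.94 with each other, and XPO1 is at -0.18 to 0.08 with these 3.

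Over all tested genes outside the 10, those most like XPO1 were HSPA4L (r = 0.988), CNOT2 (0.987), SECISBP2 (0.981), PLEKHF2 (0.977) and CWC15 (0.974). Those most like RAN were the proteasome subunit PSMB7 (0.983), the mitochondrial ribosomal gene MRPL9 (0.976), the histone chaperone subunit SSRP1 (0.975), SLC35B1 (0.975) and SFSWAP (0.975). Those most like RCC1 were the read-through gene BCL2L2-PABPN1 (0.990), the splicing factor SF3B3 (0.989), DAZAP1 (0.989), NUDC (0.988) and LAS1L (0.987). After GC and length trends were also removed, r was 0.870 to 0.997 for RCC1 with its 5 genes (lowest for BCL2L2-PABPN1, highest for SF3B3), 0.638 to 0.928 for RAN with its 5 genes (lowest for SFSWAP, highest for PSMB7) and 0.922 for RAN with RCC1. It was 0.782 for RAN with RANBP1, 0.871 to 0.921 for XPO1 with its 5 genes, 0.321 for XPO1 with XPOT and 0.432 for XPO1 with XPO7.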

How the data were processed

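RNA-seq values of 10 libraries, 1 for each cell line and treatment, were used. Per the submitters' processing notes, CASAVA 1.8.2 was used for base calling, STAR 2.4.2g1 for alignment (build GRCh38) and featureCounts, from Subread, for counting; no version of Subread is stated. The deposited FPKM values were computed by the authors for 20030 genes. No source used here states the step from counts to FPKM, any scaling between libraries, or the use of strand and of reads with several positions. The symbols of 27 entries had turned into dates and were recovered through their accessions. Reads per gene were not recoverable: among genes under 0.2 FPKM at most 1.36% shared 1 ratio (within 0.1%) to the PLC combination library, so no count model was run and depth is unknown.

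The test was limma 3.58.1 under R 4.3.3 (two-sided, with a trend of variance on expression) on log2(FPKM + 1) for the 10477 genes whose mean FPKM was 1 or more. A pseudocount of 1 understates the change of low genes. The CDK4/6 inhibitor against control and the line comparisons used 10 libraries (4 residual degrees of freedom), the others the 8 PLC and 97H libraries (3 residual degrees). Cell line was a block; within a line, the control library and the CDK4/6 inhibitor library deviated together from their group means, which correlated across genes at r = 0.901 in Huh7, 0.665 in PLC and 0.818 in 97H. No 2 libraries were identical. The 3 comparisons with control share their control libraries. GC content and length came from the longest coding transcript in GENCODE 29, matched for 10448 tested genes (99.7%), and the trends were removed per library with natural splines. The procedure was run on simulated data with independent noise and no GC trends, so that run cannot show how such trends affect the calls. Promoters came from RefSeq. Alternatives were a pseudocount of 0.1, no filter, quantile and median ratio scaling, a single prior variance, no block, trends removed, 10 libraries and leaving out each library.

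The rule for the 10 genes uses names alone, but these genes and the lists were chosen with earlier results of these data known. All 10 genes are named; for XPO1, RAN and RCC1 the 5 most like genes are named, and of each list the called genes and at most 3 with the smallest p under the combination. NXF1, MKI67, TOP2A, CD3E and the other cell type markers named, outside that rule, were chosen after their values were seen.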

Additional observations from a re-analysis of the deposited data

Results flagged for a closer look

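For 22 combinations of gene, treatment and pair of lines, the treated library lay above its control in one line and below it in the other. Each line has 1 library per treatment, so none of these differences between lines was tested, and values are log2 differences from control in one line minus those in the other.

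Under the CDK4/6 inhibitor the difference between PLC and 97H was 2.50 for XPO1, 1.72 for CSE1L, 3.06 for XPOT, 0.86 for XPO5, 1.08 for XPO7 and -1.30 for RANBP3. For the first 5 of these genes PLC was above its control and 97H below, and for RANBP3 the reverse. Huh7 minus PLC was -2.21 for XPO1, -1.98 for CSE1L, -2.665 for XPOT, -0.93 for XPO5 and -0.74 for XPO7, with Huh7 below its control in all 5. With GC and length trends removed, PLC was also below its control for CSE1L (-0.22), XPO5 (-0.22) and XPO7 (-0.10), so these opposite directions were then absent, while it was still above its control for XPO1 (0.19) and XPOT (0.54). Huh7 minus 97H was -0.53 for RANBP3, whose value in PLC was -0.90 as deposited and -0.56 with the trends removed.

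Under the XPO1 inhibitor PLC minus 97H was 1.09 for CSE1L, 2.10 for XPOT, 0.62 for XPO5, 0.78 for XPO7, 0.51 for RANBP1 and -0.88 for RANBP3. Under the combination it was 1.75 for XPOT, 0.80 for XPO6, 0.76 for XPO7 and -1.01 for RANBP3. Mixed directions were also common over all tested genes. Under the XPO1 inhibitor 16.8% of tested genes were lower and 21.7% higher in both lines, against 2 and 2 of the 10. Under the combination 24.2% were lower and 29.6% higher in both lines, against 5 and 1 of the 10. The remaining genes shared no direction, so these mixed directions do not set the 10 genes apart. No such share is given for pairs of lines under the CDK4/6 inhibitor. The GC trends of the PLC and 97H libraries had opposite signs in all 3 treatments.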

How the results depend on the processing

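Depth is unknown, each line has 1 library per treatment, and residual degrees of freedom are 3 or 4. Counts of called genes moved between settings. For the XPO1 inhibitor against control, 2 genes were called with no filter, 1 with quantile scaling and 2 with trends removed (0 to 1 leaving out a library). For the combination against control the count was 6 with no filter, 153 with quantile scaling, 27 with a single prior variance, 0 with no replicate block, 675 with trends removed and 261 with 10 libraries (0 to 184 leaving out a library). Against the CDK4/6 inhibitor it was 8 with a pseudocount of 0.1, 4 with no filter, 8 with quantile scaling, 5 with median ratio scaling, 56 with trends removed and 3 with 10 libraries (0 to 8 leaving out a library). Against the XPO1 inhibitor it was 4 with no filter, 4 with quantile scaling and 74 with trends removed (0 to 6 leaving out a library). The interaction gave 3 with no filter. The cause was not tested.

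Of the 10 genes described, 2 passed under the combination against control with trends removed (CSE1L at -1.09 and RCC1 at -1.42), 1 with 10 libraries (RCC1 at -1.42), and 0 leaving out any library. The block changed no other call of these genes against control. Between PLC and 97H, 0 passed with no filter and 2 with median ratio scaling (0 to 4 leaving out a library), between Huh7 and PLC 2 with quantile scaling (0 to 3), and between Huh7 and 97H 0 to 2. CSE1L between PLC and 97H was at 1.03 with no filter (limma, adjusted p = 0.144), 0.85 with quantile scaling (limma, adjusted p = 0.0581) and 0.75 with median ratio scaling (limma, adjusted p = 0.0625).

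Signs turned under the XPO1 inhibitor for XPOT (-0.031 with quantile scaling, -0.035 with median ratio scaling, -0.25 with trends removed, -0.11 with 10 libraries) and XPO7 (-0.030 with trends removed). Leaving out a library gave, under the CDK4/6 inhibitor, -1.14 to 0.11 for XPOT, -0.14 to 0.034 for XPO6, -0.41 to 0.066 for XPO7 and -0.49 to 0.093 for RANBP3. Under the XPO1 inhibitor it gave -0.76 to 0.063 for CSE1L, -1.07 to 1.23 for XPOT, -0.57 to 0.32 for XPO5, -0.20 to 0.68 for XPO7, -0.28 to 0.13 for RANBP1 and -0.69 to 0.37 for RANBP3. Under the combination it gave -0.15 to 1.57 for XPO1, -1.22 to 1.09 for XPOT, -0.10 to 0.79 for XPO6, -0.58 to 0.29 for XPO7 and -0.73 to 0.33 for RANBP3. Against the CDK4/6 inhibitor XPO1 ranged from -0.014 to 1.60, and in the interaction XPO1 from -1.37 to 0.35 and RANBP3 from -0.32 to 0.74. RCC1 stayed negative in all settings against control, at -1.60 to -1.17 under the combination leaving out a library, and so did RAN, at -0.86 to -0.71. XPO1 under the XPO1 inhibitor stayed positive, at 0.44 to 2.16.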
